A study of Mus musculus with 12 samples.

Results

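The genes described here are 10 of the 770 genes on the nCounter mouse PanCancer Immune Profiling Panel. They were chosen by symbol, with no threshold on their values, as the genes of the panel's inflammasome, IL-18 and NOD axis. The inflammasome genes are Nlrp3, Mefv, Pycard and Casp1, the IL-18 axis genes are Il18, Il18r1 and Il18rap, and the NOD genes are Nod1, Nod2 and Ripk2. All 10 were found, and all belong to the 750 endogenous genes that were tested beside the 20 reference genes. They were measured in 12 subcutaneous tumors of A20, a B-cell lymphoma line from Balb/c mice, implanted in female Balb/c mice of 7 to 8 weeks. Injections into the tumor began when tumors were about 7 days old and were repeated every other day, 3 in all. The PBS group received the saline control, the SE group received a 2% stable squalene emulsion, and the GLA-SE group (called G100 in the study) received 50 µl with 10 µg of glucopyranosyl lipid A, a synthetic agonist of the endotoxin receptor TLR4, in that emulsion. Each group held 4 tumors, each from its own mouse, and RNA was taken from whole tumors 2 h after the last dose. The host mice were immunocompetent and the tumors grew from 1 cell line, so RNA of the lymphoma and of host cells was measured as 1 mixture.

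Inflammasomes are protein platforms that form when a sensor such as NLRP3 or pyrin detects danger or infection. The adaptor ASC then links the sensor to caspase-1, the protease that cuts the precursors of IL-1β and IL-18 into their active forms. TLR4 signaling through NF-κB is the classical priming step, which raises Nlrp3 and Il1b RNA, whereas Pycard and Casp1 are usually expressed at a steady level. NOD1 and NOD2 are cytosolic sensors of bacterial cell wall fragments, and both signal through the kinase RIPK2. The panel measured RNA, and cleavage of caspase-1 or release of cytokines was not measured.

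The promoters of the pair of genes that rose most under GLA-SE, Nlrp3 and Mefv, are shown because the NF-κB consensus was found in a window of the first and not in the window of the second. They are the 250 bases upstream of an annotated transcript start in RefSeq on build GRCm38.p6, written 5′ to 3′ along the strand of the gene, with the match in capitals. The Nlrp3 window lies at chr11:59541319-59541568 on the plus strand. The Mefv window lies at chr16:3718125-3718374 on the minus strand.
Nlrp3: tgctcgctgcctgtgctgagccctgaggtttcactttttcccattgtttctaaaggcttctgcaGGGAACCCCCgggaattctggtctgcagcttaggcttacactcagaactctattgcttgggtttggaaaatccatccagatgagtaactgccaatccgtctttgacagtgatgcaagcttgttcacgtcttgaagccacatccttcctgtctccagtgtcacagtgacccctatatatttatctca
Mefv: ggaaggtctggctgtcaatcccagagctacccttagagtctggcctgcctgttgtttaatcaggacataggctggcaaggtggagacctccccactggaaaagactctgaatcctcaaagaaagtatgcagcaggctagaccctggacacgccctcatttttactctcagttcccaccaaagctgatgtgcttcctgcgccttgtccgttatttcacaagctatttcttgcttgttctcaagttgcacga
The match in the Nlrp3 window was read on the opposite strand and starts 186 bases before the transcript start. Windows were given for 9 of the 10 genes, 13 windows in all, and 1 of the 13 held the consensus, against 3.9% of 32851 mouse promoter windows of the same length. Both strands were searched. Nlrp3 had 2 windows, and the other, at chr11:59542436-59542685, held no match. This is a match of letters, and binding was not measured.

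A pair of tumors stood apart from the others of their groups. SE replicate 4 had the lowest level of reference genes of the 12 tumors, a geometric mean of 959 counts against 1460 to 2587 in the other SE tumors. It held the highest scaled count of its group for 74.1% of the 750 genes and for 8 of the 10. GLA-SE replicate 3 held the highest scaled count of its group for 56.5% of the 750 genes and for 6 of the 10. Values without them are given beside the results that moved most. The deposited totals ran from 810260 to 1612415 counts per tumor. Values printed per tumor are scaled counts, the deposited counts divided by each tumor's relative level of 17 reference genes. Fold changes come from edgeR fits of each pair of groups with the reference genes chosen for that pair, so they differ slightly from ratios of the printed means. Probes of different genes need not capture RNA equally well, so scaled counts are compared between tumors and not between genes.

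In GLA-SE tumors, 9 of the 10 genes were higher than in PBS tumors (edgeR, adjusted p under 0.05 over 750 genes), and 0 were lower. This has to be read against the panel, where 68.0% of the 750 genes were called higher in the same comparison. The fold changes of the 10 genes were far apart. Nlrp3 and Mefv, the pair of sensors, stood near the top of the panel, whereas the fold changes of Casp1, Ripk2 and Pycard (not called) were below that of the median gene. The median log2 fold change was 1.21 over the 10 genes and 0.89 over the 750. For the same 9 genes every GLA-SE tumor lay above every PBS tumor, as did 63.6% of the 750 genes. For each of these 9 the exact two-sided permutation test over the 70 assignments of tumors gave p = 0.0286, the smallest it can give. These separations depended on the scale. With all 20 reference genes they held for 8 of the 10 genes (Ripk2 overlapped), against 59.2% of the panel. With each tumor scaled to its panel median they held for Nlrp3 and Mefv, against 7.07% of the panel, while for Casp1, Ripk2 and Pycard every GLA-SE tumor lay below every PBS tumor, as for 37.5% of the panel.

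Nlrp3, the sensor that is primed through NF-κB, measured 53.7, 27.1, 51.9 and 51.6 scaled counts in PBS replicates 1 to 4 and 134.0, 185.9, 1433.4 and 291.8 in GLA-SE replicates 1 to 4. The groups did not overlap, and GLA-SE replicate 3 was far above the others of its group. The log2 fold change was 3.46 with a standard error of 0.79 (edgeR, adjusted p = 0.00525), the rank 12 rise among 750 genes. Without GLA-SE replicate 3 the log2 fold change was 2.13 (edgeR, adjusted p = 0.000756). The same 9 genes were called without that tumor, beside 63.3% of the panel.

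Mefv encodes pyrin, an inflammasome sensor of myeloid cells. Its scaled counts were 67.8, 45.8, 47.5 and 64.3 in the PBS tumors and 166.7, 191.1, 753.1 and 268.4 in the GLA-SE tumors. GLA-SE replicate 3 was again the highest, and the lowest GLA-SE tumor was still above every PBS tumor. The log2 fold change was 2.61 with a standard error of 0.50 (edgeR, adjusted p = 0.00241), rank 33 of 750, and 1.88 without GLA-SE replicate 3 (edgeR, adjusted p = 0.00033).

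Pycard encodes the adaptor ASC. It gave few counts, with under 20 deposited counts in 6 of the 12 tumors. Its scaled counts were 28.3, 15, 16.1 and 13.5 in the PBS tumors and 20.2, 29.1, 28.3 and 13.2 in the GLA-SE tumors, and the groups overlapped. Its log2 fold change was 0.32 with a standard error of 0.33 (edgeR, adjusted p = 0.407).

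Casp1 encodes caspase-1. Its scaled counts were 1063.5, 1006.1, 955.9 and 975.3 in the PBS tumors and 1181.5, 1332.2, 1425.8 and 1481.4 in the GLA-SE tumors. The spread within each group was small, a coefficient of variation of 4.7% and 9.68%, and the groups did not overlap. A log2 fold change of 0.43 was fitted, with a standard error of 0.10 (edgeR, adjusted p = 0.00647), which is below the panel median of 0.89, and it turned to -0.84 when the tumors were scaled to the panel median.

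**Figure D1:**
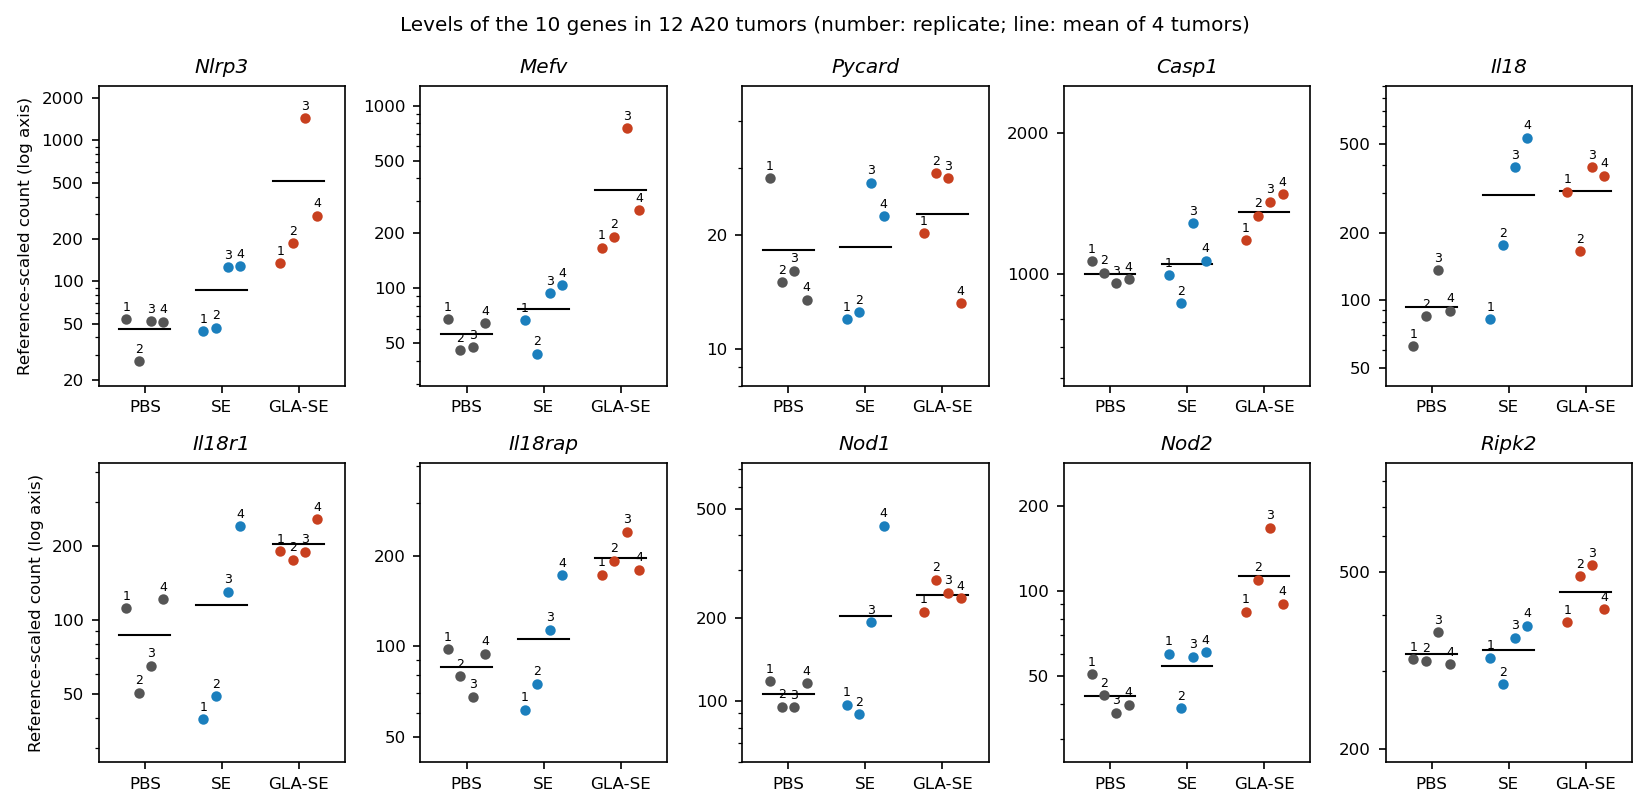
Reference-scaled counts (vertical axis, log scale, in counts, with its own range in each panel) of the 10 genes in the PBS, SE and GLA-SE tumors. Each point is 1 tumor with its replicate number and each line is the mean of 4 tumors, and Nlrp3 in GLA-SE replicate 3 (1433.4) lies far above the 134.0 to 291.8 of the other GLA-SE tumors.

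All 3 genes of the IL-18 axis rose in the GLA-SE tumors. Il18, the cytokine that caspase-1 activates and that drives interferon gamma in NK and T cells, measured 62.2, 85.1, 135.8 and 89.7 scaled counts under PBS and 305.5, 165.1, 392.3 and 359.9 in the GLA-SE tumors. GLA-SE replicate 2 was the lowest of its group and still above the highest PBS tumor. Il18 rose by 1.71 on the log2 scale with a standard error of 0.33 (edgeR, adjusted p = 0.00243), and leaving out each tumor in turn gave 1.56 to 1.95.

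Il18r1 encodes the chain of the receptor that binds IL-18. It measured 111.2, 50.5, 65.0 and 121.5 scaled counts in the PBS tumors and 189.8, 175.5, 189.1 and 256.2 in the GLA-SE tumors. The PBS tumors differed among themselves by 2.41-fold, and none reached the lowest GLA-SE tumor. Its log2 fold change was 1.21 with a standard error of 0.30 (edgeR, adjusted p = 0.00777). Il18rap, the accessory chain that the receptor needs to signal, measured 98.0, 79.5, 67.9 and 94.5 scaled counts in the PBS tumors and 173.5, 193.1, 241.2 and 180.0 in the GLA-SE tumors. Both groups were narrow and did not overlap. Its log2 fold change was 1.21 with a standard error of 0.20 (edgeR, adjusted p = 0.00109). The genes of both receptor chains, neighbors on chromosome 1 of build GRCm38.p6 (Il18r1 at chr1:40465552-40500854, Il18rap at chr1:40515362-40551707), had the same log2 fold change to 2 decimals in this fit. The match did not hold in every fit, with 1.25 for Il18r1 and 1.10 for Il18rap without GLA-SE replicate 3.

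The NOD genes also rose, by different amounts. Nod1, the sensor of peptidoglycan fragments typical of Gram-negative bacteria, measured 117.8, 95.4, 94.9 and 116.0 scaled counts in the PBS tumors and 211.0, 276.2, 247.8 and 235.9 in the GLA-SE tumors. All GLA-SE tumors were above all PBS tumors with little spread in either group. The log2 fold change was 1.19 with a standard error of 0.17 (edgeR, adjusted p = 0.000508), the smallest adjusted p of the 10 genes. Nod2, the sensor of muramyl dipeptide, measured 50.9, 43.0, 37.2 and 39.7 scaled counts in the PBS tumors and 84.8, 110.1, 168.4 and 90.5 in the GLA-SE tumors. GLA-SE replicate 3 was the highest. Its log2 fold change was 1.40 with a standard error of 0.26 (edgeR, adjusted p = 0.00213), and 1.15 without that tumor (adjusted p = 0.00136).

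Ripk2, the kinase that both NOD sensors use to reach NF-κB, measured 318.4, 316.0, 365.9 and 310.5 scaled counts in the PBS tumors and 385.5, 488.0, 517.3 and 411.8 in the GLA-SE tumors. The lowest GLA-SE tumor lay just above the highest PBS tumor. Ripk2 rose by 0.45 on the log2 scale with a standard error of 0.14 (edgeR, adjusted p = 0.0186), again below the panel median, and turned to -0.85 under panel median scaling. The call did not hold without PBS replicate 4 (edgeR, adjusted p = 0.0544) or with all 12 tumors in 1 fit (adjusted p = 0.056). In that joint fit Il18r1 (adjusted p = 0.0925) and Nod1 (adjusted p = 0.0576) were not called either. The joint fit called 6 of the 10 genes, beside 253 of the 750 called higher.

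**Figure D2:**
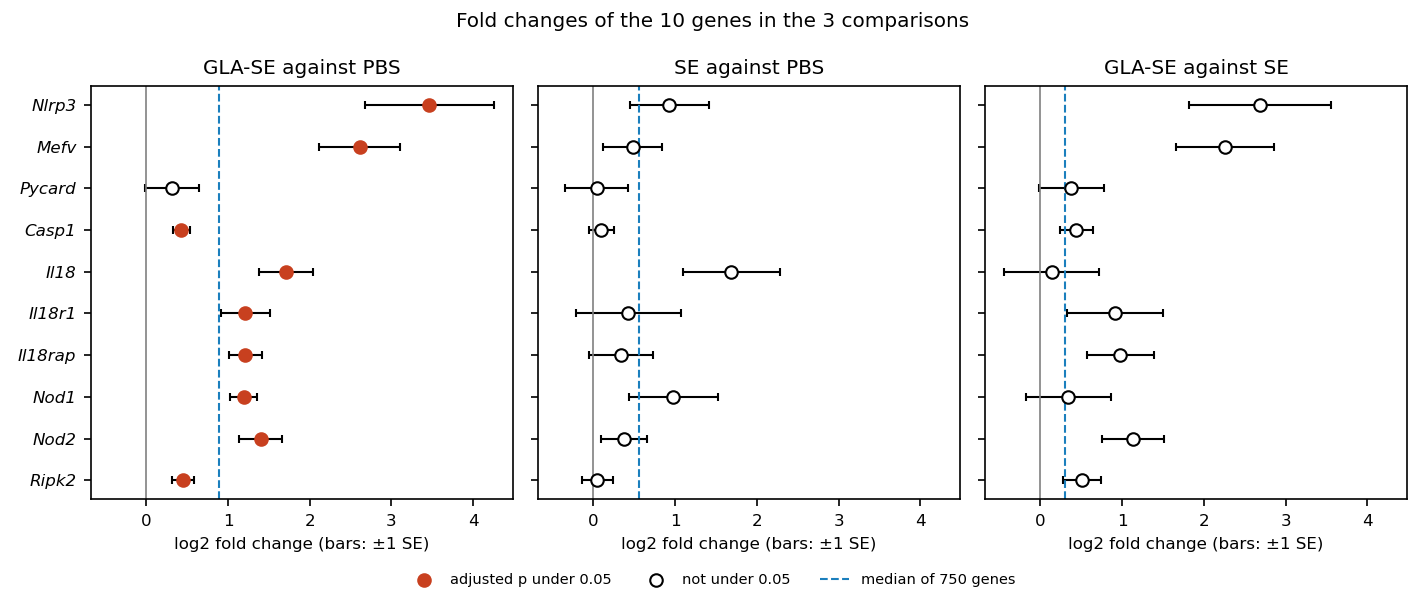
Log2 fold changes from edgeR (horizontal axis) of the 10 genes in the 3 comparisons, with bars of 1 standard error on either side, and the median of the 750 genes as a dashed line. Filled points have an adjusted p under 0.05, which 9 genes reached for GLA-SE against PBS and 0 genes in the other comparisons.

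The direction of the smaller changes depended on the scale. Reference genes made the median gene of the panel rise by 0.89 (log2) in GLA-SE against PBS tumors, whereas scaling every tumor to its own panel median put the median log2 fold change of all genes at -0.40. On that scale Nlrp3 (log2 fold change 2.02, edgeR adjusted p = 0.0199) and Mefv (1.24, adjusted p = 0.0182) were still called higher, 2 of the 10 genes against 8.13% of the panel. Casp1 (-0.84, adjusted p = 0.00139), Ripk2 (-0.85, adjusted p = 0.00234) and Pycard (-0.96, adjusted p = 0.0164) were called lower, 3 of the 10 against 40.9% of the panel. The other 5 genes lay between -0.08 and 0.39 and were not called. A change of scale moves all genes by nearly the same amount, so the distance of a gene from the median gene is nearly fixed by construction. On all 5 scales 7 genes lay above the median gene (Nlrp3, Mefv, Il18, Nod2, Il18r1, Il18rap and Nod1) and Casp1, Ripk2 and Pycard below it.

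**Figure D3:**
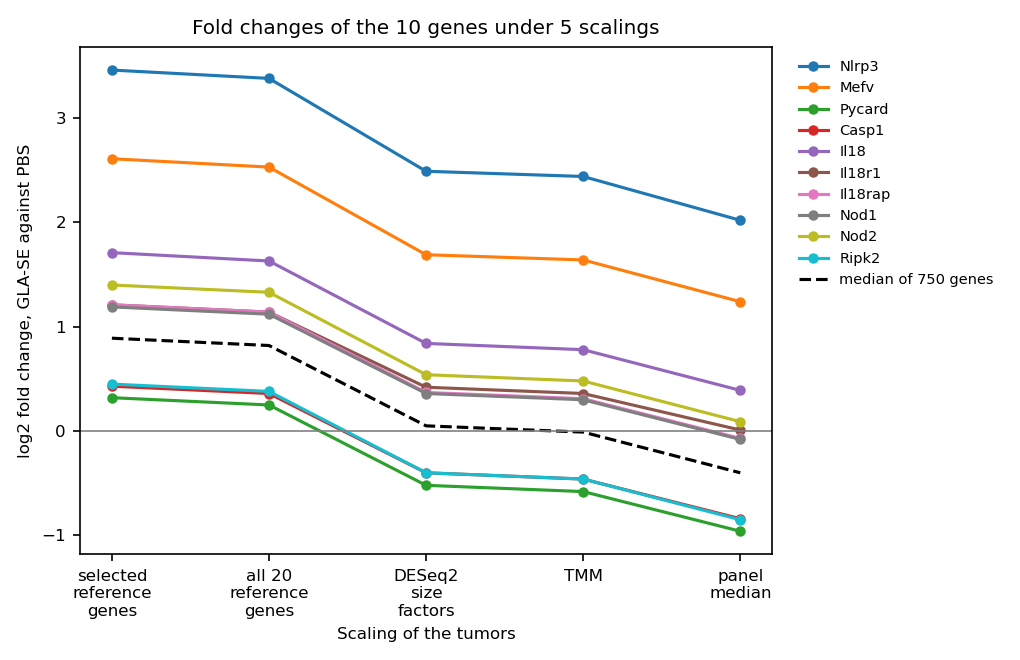
Log2 fold changes of the 10 genes for GLA-SE against PBS tumors (vertical axis) under 5 ways of scaling the tumors (horizontal axis), with the median of the 750 genes dashed. Casp1 lies under the Ripk2 line, and Il18r1, Il18rap and Nod1 nearly coincide. Nlrp3 and Mefv stay above 0 throughout, whereas Casp1, Ripk2 and Pycard cross 0.

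Ratios of genes within a tumor do not depend on the scale, and 7 were computed. For 3 of them the GLA-SE and PBS tumors did not overlap, beside 35.3% of all pairs of endogenous genes. Nlrp3 over Pycard, sensor over adaptor, had log2 values of 0.90, 0.82, 1.65 and 1.87 in the PBS tumors and 2.67, 2.63, 5.61 and 4.36 in the GLA-SE tumors. Every GLA-SE tumor was above every PBS tumor, by 2.51 on average, although Pycard counts were low. Nlrp3 over Casp1, sensor over effector, averaged -4.46 ± 0.47 (SD, n = 4) in the PBS tumors and -2.07 ± 1.43 (SD, n = 4) in the GLA-SE tumors, also without overlap. Without GLA-SE replicate 3 the GLA-SE mean was -2.77 ± 0.40 (SD, n = 3), and that of Nlrp3 over Pycard was 3.22 ± 0.99 instead of 3.82 ± 1.44. Ripk2 over Nod1, kinase over sensor, went the other way, averaging 1.62 ± 0.25 (SD, n = 4) under PBS and 0.89 ± 0.12 (SD, n = 4) under GLA-SE, with all GLA-SE tumors below all PBS tumors. The ratios Casp1 over Pycard, Il18 over Casp1, Il18rap over Il18r1 and Nod2 over Nod1 overlapped between these groups.

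**Figure D4:**
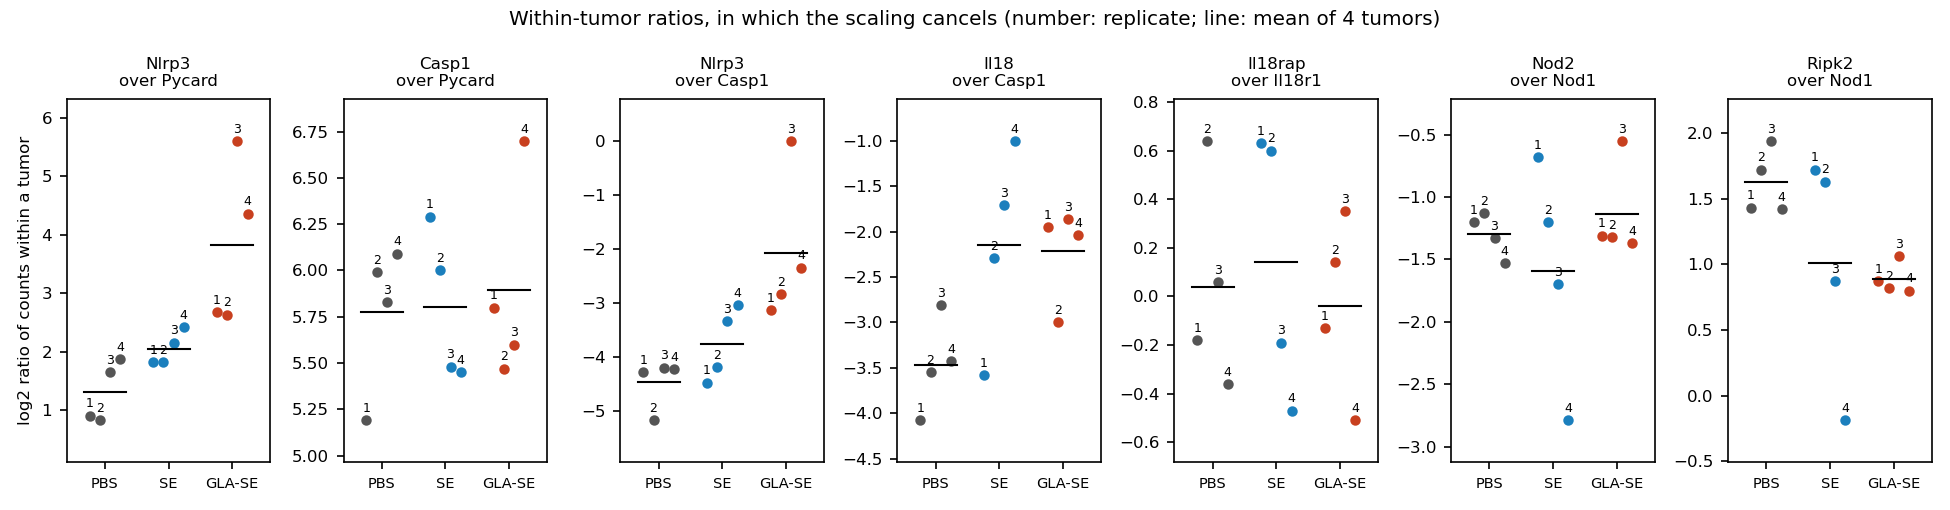
Log2 ratios of the counts of a pair of genes within each tumor (vertical axis, with its own range in each panel) in the PBS, SE and GLA-SE tumors. Each point is 1 tumor with its replicate number and each line is the mean of 4. Nlrp3 over Pycard and Nlrp3 over Casp1 lie higher and Ripk2 over Nod1 lower in all GLA-SE than in all PBS tumors.

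The emulsion alone changed none of the 10 genes past the threshold against PBS (edgeR, 0 of 10, and 0.0% of the panel was called higher). At an unadjusted p under 0.05 there was 1 gene of the 10 and 147 of the 750. That gene was Il18, with scaled counts of 82.2, 176.0, 392.2 and 531.3 in SE replicates 1 to 4, 3 of them above every PBS tumor. Its log2 fold change was 1.69 with a standard error of 0.59 (edgeR, adjusted p = 0.228), and the point estimate lay close to the 1.71 of GLA-SE against PBS, which shares the PBS tumors. DESeq2 with the same reference genes called Il18 (adjusted p = 0.0368), 1 of the 10 genes beside 61 of the 750 called higher. With limma and with DESeq2's own size factors 0 of the 10 were called, beside 0 and 7 of the 750 called higher. Over the 10 genes the median log2 fold change was 0.40, and over the panel it was 0.56. For 0 of the 10 genes did all SE tumors lie above all PBS tumors, as 8.67% of the panel did.

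The SE tumors were unlike one another. Nod1 measured 97.0, 89.6, 193.6 and 433.6 scaled counts in SE replicates 1 to 4, and Il18r1 measured 39.5, 48.9, 129.9 and 240.2. For both, replicates 1 and 2 lay in or below the PBS range and replicate 4 was the highest. Il18rap, at 61.5, 75.0, 113.7 and 173.0, and Nlrp3, at 44.1, 46.9, 126.2 and 128.2, were arranged alike. Mefv measured 66.9, 43.7, 93.7 and 103.8 scaled counts, and Nod2 measured 60.2, 38.5, 58.7 and 61.1. Casp1 measured 993.7, 865.3, 1284.0 and 1066.7, Ripk2 321.0, 280.1, 356.0 and 378.6, and Pycard 12, 12.5, 27.5 and 22.4. Counted over the 10 genes, SE replicates 1 and 2 were above all PBS tumors for 1 gene each (Nod2 and Il18), SE replicate 3 for 8 and SE replicate 4 for 9. The corresponding shares of the panel were 21.6%, 21.1%, 73.2% and 80.1%, so the 10 genes followed the panel. The log2 fold changes other than that of Il18 ran from 0.04 for Pycard to 0.98 for Nod1 (standard error 0.54, edgeR adjusted p = 0.259). Without SE replicate 4 they were 0.26 for Nod1, 0.65 for Nlrp3, -0.26 for Il18r1 and 1.22 for Il18, with 0 of the 10 called, as for 0.0% of the panel. For the 7 ratios, 0 separated the SE from the PBS tumors, beside 5.8% of all pairs.

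Set directly against the emulsion, GLA-SE tumors had higher point estimates for all 10 genes, but none passed the threshold (edgeR, 0 of 10, against 2.13% of the panel called higher). An unadjusted p under 0.05 was reached by 152 of the 750 genes and by 4 of the 10. These were Mefv (log2 fold change 2.26, standard error 0.60, edgeR adjusted p = 0.0935), Nlrp3 (2.69, standard error 0.87, adjusted p = 0.144), Nod2 (1.13, standard error 0.38, adjusted p = 0.15) and Il18rap (0.98, standard error 0.41, adjusted p = 0.236). For these 4 genes and Ripk2, every GLA-SE tumor lay above every SE tumor, 5 of the 10 genes beside 14.4% of the panel, and the exact two-sided permutation test on this scale gave p = 0.0286 for each. With panel median scaling Mefv alone of the 10 was so separated, beside 2.53% of the panel. The median log2 fold change was 0.71 over the 10 genes and 0.30 over the panel.

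Il18 was the gene with the smallest difference between these groups, a log2 fold change of 0.14 with a standard error of 0.58 (edgeR, adjusted p = 0.931). The GLA-SE tumors (165.1 to 392.3 scaled counts) lay inside the range of the SE tumors (82.2 to 531.3), and the wide standard error leaves differences in either direction possible. Nod1 was similar, at 0.34 with a standard error of 0.52. The remaining genes were Il18r1 (0.91, standard error 0.59), Casp1 (0.44, standard error 0.20) and Pycard (0.38, standard error 0.40).

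The count of calls against SE depended on single tumors and on the tool. Without SE replicate 4, Il18rap was called (log2 fold change 1.31, edgeR adjusted p = 0.0397), 1 of the 10 genes against 14.3% of the panel. An unadjusted p under 0.05 was then reached by 7 of the 10 and by 292 of the 750. Without GLA-SE replicate 3, 0 of the 10 and 2.0% of the panel were called, and the log2 fold changes of Nlrp3 and Mefv were 1.30 and 1.49. Without both tumors they were 1.54 and 1.66, with 0 of the 10 called, beside 72 of the 750 genes called higher. DESeq2 with the same reference genes called 5 genes (Nlrp3, Mefv, Il18rap, Nod2 and Ripk2), beside 132 of the 750 called higher. DESeq2 with its own size factors called Nlrp3 and Mefv, beside 54 of the 750. The joint fit of 12 tumors called Mefv and Nod2, beside 69, and limma called 0, beside 18. Of the 7 ratios, Nlrp3 over Pycard separated the groups (3.82 ± 1.44 in GLA-SE and 2.05 ± 0.29 in SE tumors, SD, n = 4 each), beside 13.3% of all pairs.

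Markers of some other cell types were also higher in the tumors where these genes were high, beside the 68.0% of the panel that was called higher in GLA-SE against PBS. The summed scaled count of the 7 monocyte and macrophage markers ranged from 2587 to 3720 under PBS and from 7964 to 18329 under GLA-SE, with all 7 called higher. In SE replicates 1 to 4 it was 2485, 2114, 10949 and 17167, so SE replicates 3 and 4, which had the most Il18, Nod1 and Il18r1 RNA of the SE tumors, also had the most of these markers. Neutrophil markers summed to 219 to 248 in PBS, 217 to 1217 in SE and 822 to 8895 in GLA-SE tumors, with 3 of 7 called higher in GLA-SE against PBS. That share was below the 68.0% of the panel, and their median log2 fold change of 0.60 was below the 0.89 of the panel. The highest sum of the neutrophil markers was in GLA-SE replicate 3, the tumor with the highest Nlrp3 and Mefv. Endothelial and fibroblast markers summed to 4099 to 9245 in PBS and 18062 to 26550 in GLA-SE tumors (9 of 9 called higher), and to 3529, 4465, 28175 and 121340 in SE replicates 1 to 4.

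The T cell, NK cell and dendritic cell lists were likewise called higher in GLA-SE against PBS tumors about as often as the panel (68.0%) or less often. The counts were 4 of 6 T cell, 2 of 4 NK cell and 1 of 4 dendritic cell markers. Without GLA-SE replicate 3 the T cell count was 1 of 6, beside 63.3% of the panel, and the counts of the other lists were the same. NK cell markers summed to 191 to 513 scaled counts in PBS, 205 to 658 in SE and 686 to 781 in GLA-SE tumors, and T cell markers to 769 to 2158, 649 to 4570 and 2252 to 3080. Dendritic cell markers summed to 641 to 782 in PBS, 761 to 979 in SE and 830 to 1200 in GLA-SE tumors. The 6 B cell markers of the lymphoma itself were present throughout, at 17350 to 20509 in PBS, 11622 to 20307 in SE and 13681 to 16033 in GLA-SE tumors, with 2 of 6 called lower in GLA-SE against PBS. No marker gene of any list was at 0 in all tumors, but some gave few counts. Of the 7 neutrophil markers, 2 in PBS, 3 in SE and 3 in GLA-SE were under 20 deposited counts in every tumor of the group. The same held for 1 of the 4 NK cell markers in SE tumors. In bulk RNA, fewer cells of a type and less RNA per cell cannot be told apart, and the part of the markers in the results for the 10 genes was not tested.

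**Figure D5:**
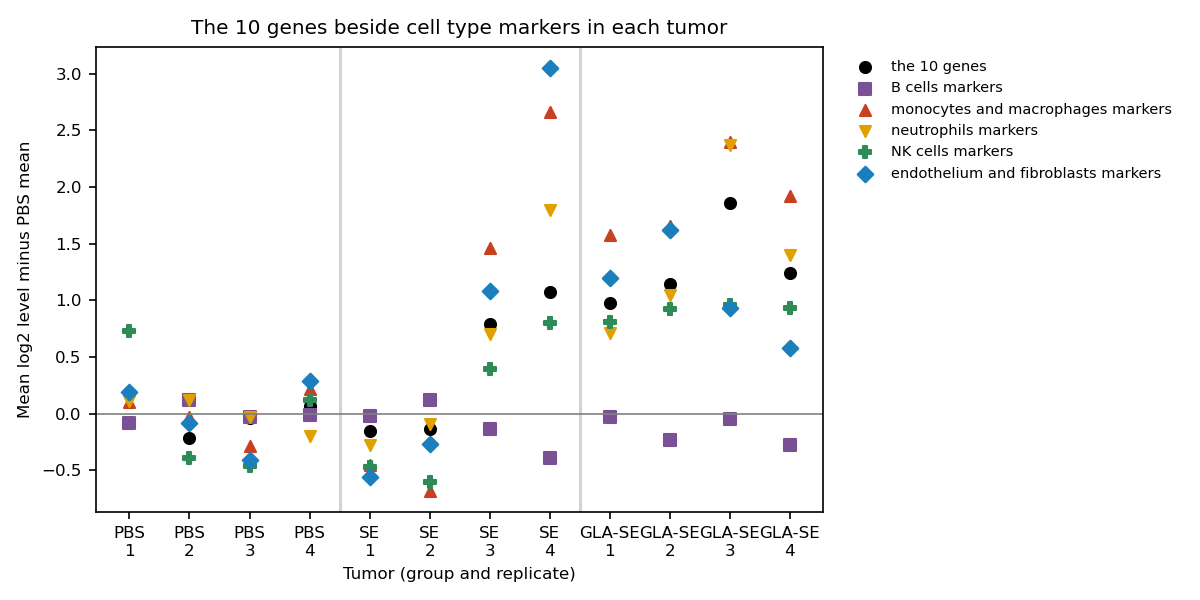
Mean log2 level in each of the 12 tumors (horizontal axis) of the 10 genes and of 5 marker lists, as the difference from the PBS mean (vertical axis, log2 units). The 10 genes lie 0.98 to 1.86 above the PBS mean in the GLA-SE tumors and at -0.15, -0.14, 0.79 and 1.07 in SE replicates 1 to 4. Macrophage markers (1.58 to 2.40, and -0.45, -0.68, 1.46 and 2.66) and NK cell markers rank those SE tumors alike except for replicates 1 and 2. Neutrophil markers (-0.28, -0.09, 0.70 and 1.80) and endothelial and fibroblast markers (-0.56, -0.27, 1.08 and 3.05) rank all of them alike. B cell markers (-0.02, 0.12, -0.14 and -0.39) do not.

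The partners of these genes on the panel, 43 in 4 lists, were called as follows for GLA-SE against PBS, where 68.0% of the panel was called higher. All 9 IL-1 ligands and receptors were higher, with a median log2 fold change of 1.99. Il1b, which encodes the other cytokine that caspase-1 cuts, averaged 107.8 ± 29.8 scaled counts under PBS and 3921 ± 5217 under GLA-SE (SD, n = 4), a log2 fold change of 5.18 with a standard error of 1.01 (edgeR, adjusted p = 0.00255). It ranged from 416.3 to 11653.9 between the GLA-SE tumors, with the highest value in replicate 3. Il1a rose by 3.86 (adjusted p = 0.00778) and Il1rn, the natural antagonist of the IL-1 receptor, by 2.70 (adjusted p = 0.00807). Without GLA-SE replicate 3 these log2 fold changes were 3.63 for Il1b, 1.98 for Il1a and 1.5 for Il1rn (edgeR, adjusted p = 0.000568, 0.000519 and 0.00107). All 9 genes of the list were then still called, with a median of 1.39, beside 63.3% of the panel and a panel median of 0.74. Against SE, 0 of the 9 were called (Il1b 3.70, edgeR adjusted p = 0.122).

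Of 7 regulators of inflammasomes, 6 were higher in GLA-SE than in PBS tumors. This was the one list with calls against SE, 3 of 7 beside 2.13% of the panel. Gbp5, an interferon-induced guanylate-binding protein known to promote NLRP3 assembly, measured 273.2 ± 56.0 in PBS, 384.2 ± 93.7 in SE and 1483.5 ± 677.5 scaled counts in GLA-SE tumors (SD, n = 4). Its log2 fold change was 2.44 against PBS (edgeR, adjusted p = 0.000419) and 2.04 against SE (adjusted p = 0.0284). Gbp2b, of the same family, rose by 1.57 against PBS (adjusted p = 0.000377) and by 1.51 against SE (adjusted p = 0.0123). Zbp1, a sensor of nucleic acids, rose by 1.54 (adjusted p = 0.00033) and 1.27 (adjusted p = 0.0405). The call of Zbp1 against SE was lost without GLA-SE replicate 3 (1.19, edgeR adjusted p = 0.1), which left 2 of 7, beside 2.0% of the panel. Gbp5 (1.65, edgeR adjusted p = 0.0352) and Gbp2b (1.55, adjusted p = 0.0294) were still called.

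All 13 genes of IL-18 signaling and its IL-12 partners were higher against PBS, with a median of 1.34. Irak2, a kinase downstream of IL-1 and IL-18 receptors, rose by 1.74 (edgeR, adjusted p = 0.00167). Il12b, a subunit of IL-12, the cytokine that acts together with IL-18, rose by 2.64 (adjusted p = 0.0412), but its GLA-SE tumors ranged from 58.0 to 883.5 scaled counts and overlapped the PBS tumors. It was at 0.47 and not called without GLA-SE replicate 3 (adjusted p = 0.206). Il12rb2, a chain of the IL-12 receptor, rose by 2.20 (adjusted p = 0.00742), from few deposited counts in the PBS tumors (10 to 29). Without GLA-SE replicate 3, 11 of the 13 were called, with a median of 0.66. The panel then had 63.3% of its genes called higher and a median of 0.74, above that of this list. Of 14 genes of NOD signaling, 9 were higher with all tumors, with a median of 0.44, below the 0.89 of the panel. Tnfaip3, a deubiquitinase that dampens NF-κB, rose by 1.84 (adjusted p = 0.00802) and Nfkbia, an NF-κB inhibitor that NF-κB itself induces, by 1.49 (adjusted p = 0.0126). Card9, an adaptor that acts with NOD2, rose by 0.87 (adjusted p = 0.00975). Its deposited counts were few, 14 to 21 in PBS and 21 to 33 in GLA-SE tumors. Leaving out GLA-SE replicate 3 gave 1.09 for Tnfaip3, 0.83 for Nfkbia and 0.90 for Card9, all still called. The list again had 9 calls, with a median of 0.28, against 0.74 over the panel. Against SE, 0 of 13 (1 without SE replicate 4, beside 14.3% of the panel) and 0 of 14 were called. In SE against PBS 0 genes of all 4 lists were called.

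For each gene the panel was searched for the gene with the most similar pattern, the smallest root mean square difference of centered log2 levels over the 12 tumors. Nlrp3, which ranged over 5.67 log2 units, was nearest to Socs3 (0.35), Ccrl2 (0.37) and Aire (0.41), against a median of 1.23 over the 740 other genes. The Aire probe is named as the panel lists it. Mefv was nearest to Cd80 (0.22), Il18 to Alcam (0.46), Il18r1 to Ctsw (0.19) and Il18rap to Itgb2 (0.16). Nod1 was nearest to Lamp2 (0.15), Nod2 to Hif1a (0.18), Ripk2 to Mavs (0.12), Casp1 to Irf5 (0.12) and Pycard to Mnx1 (0.25). Il18 thus had the most distant nearest neighbor of the 10 genes. Such differences depend on how far a gene ranges, which was 3.07 log2 units for Il18, 0.77 for Casp1 and 0.88 for Ripk2. The median difference over the other genes was 0.85 for Il18 and 0.56 for both Casp1 and Ripk2. These differences describe 12 tumors that share groups and scale, and they were not tested.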

How the data were processed

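RNA from 12 whole A20 tumors (4 per group) was extracted with the Qiagen Allprep kit and counted on the nCounter mouse PanCancer Immune Profiling Panel. The authors deposited 1 table of counts, the barcoded probes counted per gene and tumor, as whole numbers. Normalization in nSolver is stated in the study, but the deposited counts have unequal totals (810260 to 1612415 per tumor) and unequal reference genes, so they were treated as raw. Precision is set by 4 tumors per group and, for Pycard and the partners Card9 and Il12rb2, by few counts. Groups were taken from the sample labels. No batch is given in the labels, and 0 columns were left unused. Replicate tumors were checked for duplicates, and none were found.

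Reference genes were chosen by geNorm, 15 for GLA-SE against PBS, 15 for SE against PBS, 12 for GLA-SE against SE and 17 over all tumors for the printed scaled counts. Pairs of groups were fitted with edgeR 4.0.16 (quasi-likelihood, R 4.3.3) over 750 endogenous genes without filter or covariate. Benjamini-Hochberg adjustment and a threshold of 0.05 were used. The standard errors printed with edgeR fold changes were derived from the test. They are the absolute log2 fold change divided by the square root of its F statistic. The fits were tested on simulated data in which 200 of 750 genes were changed. Of genes changed by 1 on the log2 scale, 66.7% were called for GLA-SE against PBS. The shares were 25.8% for SE against PBS and 8.49% for GLA-SE against SE. Of genes changed by 2, 100%, 80.6% and 39.4% were called, in the same order. A gene without a call in the comparisons with SE may therefore still differ. Single genes also had an exact two-sided permutation test over 70 assignments. Alternatives used all 20 reference genes, the panel median, TMM, DESeq2 1.42.0, limma 3.58.1 with a pseudocount of 1, a filter of 20 counts in 4 of 8 tumors, 1 fit of all tumors, the replicate number as a block and each tumor left out. Leaving out both GLA-SE replicate 3 and SE replicate 4 was chosen after seeing the data.

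The 10 genes and all lists were chosen with earlier results of these data known. Named genes were the 10, the 3 of each partner list with the largest absolute change in GLA-SE against PBS, and the nearest gene in pattern (3 for Nlrp3). Promoter windows came from RefSeq (GRCm38.p6), matched by gene for 9 of 10. Figures were drawn with matplotlib 3.10.9.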

Additional observations from a re-analysis of the deposited data

Results flagged for a closer look

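In groups of 4 tumors, the highest or lowest value was examined for a gap to the others larger than Dixon's 95% limit. Of 30 groups of the 10 genes 4 had such a value, where 5% of the groups would be 1.5. That figure holds for independent groups of normally distributed values. The genes share tumors and their scaled counts were not put on a log scale, so the 4 cannot be judged against it. Nlrp3 was at 27.1 scaled counts in PBS replicate 2, against 51.6 to 53.7 in the other PBS tumors, and at 1433.4 in GLA-SE replicate 3, against 134.0 to 291.8. Nod2 was at 38.5 in SE replicate 2, against 58.7 to 61.1 in the other SE tumors. Ripk2 was at 365.9 in PBS replicate 3, against 310.5 to 318.4.

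Of 21 groups of within-tumor log2 ratios 3 had such a value, where 5% of the groups would be 1.05. The ratios share genes and tumors, so these groups are not independent either. Nlrp3 over Casp1 was -5.17 in PBS replicate 2, against -4.28 to -4.19. Il18 over Casp1 was -3.0 in GLA-SE replicate 2, against -2.04 to -1.86. Nod2 over Nod1 was -0.55 in GLA-SE replicate 3, against -1.37 to -1.31.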

How the results depend on the processing

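For GLA-SE against PBS, 9 genes were called higher in the main setting, beside 510 of the 750 genes. Panel median scaling called 2 higher and 3 lower, beside 61 and 307 of the 750. TMM scaling called 2 higher and 2 lower, beside 148 and 168. DESeq2 with its own size factors called 6 higher and 2 lower, beside 193 and 153. The genes called lower were Casp1 and Ripk2, and with the panel median also Pycard. The median log2 fold change of the 10 genes was -0.03 with the panel median, 0.33 with TMM and 0.39 with DESeq2's own size factors. Under these 3 settings, in that order, Pycard was at -0.96, -0.58 and -0.52, Casp1 at -0.84, -0.46 and -0.40, and Ripk2 at -0.85, -0.46 and -0.40. With the panel median Il18rap was at -0.07 and Nod1 at -0.08.

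For SE against PBS, 0 genes were called, and DESeq2 with the reference genes called 1, beside 61 of the 750 genes called higher. The median was -0.18 with the panel median, -0.15 with TMM and -0.11 with DESeq2's own size factors. Under these 3 settings Pycard was at -0.51, -0.46 and -0.42, Casp1 at -0.33, -0.35 and -0.29, Il18r1 at -0.44, -0.32 and -0.29, Il18rap at -0.29, -0.26 and -0.21, and Ripk2 at -0.39, -0.41 and -0.35. Mefv was at -0.07 with the panel median and -0.05 with TMM, and Nod2 at -0.05 with each. With all 20 reference genes Pycard was at -0.05 and Ripk2 at -0.03. Leaving out each tumor in turn gave -0.22 to 0.32 for Pycard, -0.005 to 0.18 for Casp1, -0.26 to 0.72 for Il18r1, -0.02 to 0.54 for Il18rap and -0.03 to 0.13 for Ripk2.

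For GLA-SE against SE, 0 genes were called. DESeq2 called 2 with its own size factors and 5 with the reference genes, beside 54 and 132 of the 750 genes called higher. The joint fit called 2, beside 69 of the 750. Leaving out each tumor in turn called 0 to 1 (1 without SE replicate 4, beside 107 of the 750). The median was -0.03 with the panel median. Under the panel median, TMM and DESeq2's own size factors, Pycard was at -0.45, -0.08 and -0.15, Casp1 at -0.52, -0.08 and -0.16, Il18 at -0.44, -0.13 and -0.18, and Ripk2 at -0.46, -0.02 and -0.11. Nod1 was at -0.19 with the panel median. Leaving out each tumor in turn gave -0.17 to 0.57 for Il18.

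Over all 3 comparisons 240 values of single genes were recomputed with 1 tumor left out. Of these 226 kept their direction and side of the threshold, 12 changed sign, 1 lost its call (Ripk2) and 1 gained one (Il18rap). The scalings differ by construction in the level they hold fixed. The cause of the other changes was not tested.

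Deviations of tumors of the same replicate number from their group means had correlations from -0.25 to 0.18. With 4 tumors per group these cannot settle whether the numbers pair the tumors, and the labels do not say. With the replicate number as a block, 8 genes were called for GLA-SE against PBS, Ripk2 being lost (edgeR, adjusted p = 0.0525), 0 for SE against PBS and 0 for GLA-SE against SE. On the panel the block gave 435 higher and 2 lower calls for GLA-SE against PBS, where 510 and 4 were called without it, and 0 for GLA-SE against SE, where 16 were called without it. Pycard is limited by its counts, and single differences against SE by the spread of the SE tumors.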
